A study of Mus musculus with 8 samples.

Results

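Branched chain amino acid catabolism was followed through 10 genes in the fat beside the epididymis of mice given a glucocorticoid or its vehicle. The genes were chosen by name as enzymes of valine, leucine and isoleucine breakdown: Bcat2, Bckdha, Bckdhb, Dbt, Hibch, Hibadh, Ivd, Mccc1, Acad8 and Acadsb. They are 10 of the 22180 genes with a probe set that carries a single gene symbol in the platform annotation, and each of the 10 has 1 such probe set. Left epididymal fat was taken from 8 male C57BL/6 mice, and its total RNA was hybridised to 1 Affymetrix Mouse Gene 2.0 ST array per mouse. Every mouse was caged alone and was weaned at 3 weeks onto an n-6 rich high-fat diet, fat giving 45% of its energy, and kept on it to 10 weeks of age. The prednisolone group (n = 4) took this synthetic glucocorticoid every day from 6 weeks of age, for 4 weeks, mixed into sweet potato puree. The dose is written in the labels as 40 mg per kg per square metre. The vehicle group (n = 4) took the puree without the drug. Mice are called by the replicate number of their label, and the labels tie equal numbers to no shared animal, litter or day.

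Valine, leucine and isoleucine share the first steps of their breakdown. In mitochondria a transaminase moves their nitrogen to 2-oxoglutarate, and the branched chain ketoacid dehydrogenase complex then removes a carbon as carbon dioxide and attaches coenzyme A, a step that commits the carbon skeleton to oxidation. The routes separate after that: leucine ends in acetyl-CoA and acetoacetate, valine in succinyl-CoA, and isoleucine in acetyl-CoA and succinyl-CoA. The dehydrogenase is switched off when the kinase BCKDK phosphorylates its E1 alpha subunit and switched on again by the phosphatase PPM1K. Adipocytes take up these amino acids and oxidise them as they differentiate, which feeds lipid synthesis, and expression of the pathway in white fat is known to fall in obesity and insulin resistance. Glucocorticoids are known to raise amino acid breakdown in muscle and liver, in part through the transcription factor KLF15.

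The tissue was read as fat on every array: the adipokine gene Adipoq lay between 11.74 and 12.29 on the log2 scale, and the lipid droplet gene Plin1 between 11.52 and 12.08. The arrays differed most in transcripts of the epididymis. The epididymal glutathione peroxidase gene Gpx5 ran from 4.19 to 13.81, and 3 mice had a mean deviation over 11 epididymis markers above 1: vehicle mouse 1 (3.51), vehicle mouse 4 (2.50) and prednisolone mouse 2 (2.69). This deviation is the mean over a list's genes of each log2 value minus its mean over the 8 arrays. Prednisolone mouse 1, at 0.52, still read 11.27 for Gpx5, and vehicle mouse 3, at -1.35, read 8.69. Leaving out the 3 mice above 1 therefore does not remove all epididymal transcripts. In whole tissue, fewer cells of a type and less RNA per cell cannot be told apart. No pair of arrays was identical, and array medians lay between 6.09 and 6.13.

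None of the 10 genes passed an adjusted p of 0.05 between the groups (limma with Benjamini-Hochberg adjustment over 14787 tested genes), against 0% of all tested genes. All 10 lay above the filter on dim genes. The mean was higher with prednisolone for 8 genes and lower for 2, Bcat2 and Acadsb, where 54.6% of all tested genes had a higher mean. The median difference of the 10 genes was 0.049 on the log2 scale, and that of all tested genes was 0.018. The median of the 10 genes turned to -0.013 when vehicle mouse 3 was left out, to -0.0049 when vehicle mouse 1 was, and to -0.014 under array quality weights. Leaving out vehicle mouse 4 or prednisolone mouse 2 gave 0.12, and prednisolone mouse 3 gave 0.014. The highest median, 0.14, came without the 3 mice rich in epididymal transcripts. In size regardless of sign, the median difference was 0.050 for the 10 genes and 0.11 for all tested genes. The count of 8 higher genes rested on single mice: it came to 4 when vehicle mouse 1 or vehicle mouse 3 was left out, to 5 when prednisolone mouse 3 was, and to 10 when vehicle mouse 4 was. With array quality weights it was also 4, and without the 3 mice rich in epididymal transcripts it was 8. At an unadjusted p under 0.05, 1 of the 10 genes was found, Hibch, where 5.69% of all tested genes were. In 0 of the 10 genes did the groups lie apart, against 3.2% of tested genes (1.81% apart with prednisolone higher, 1.39% with it lower). The 95% intervals of the differences, not adjusted for the number of genes, reached from 0.752-fold for Bcat2 at the lower end to 1.46-fold for Hibch at the upper end, so larger changes lay outside the interval of each of the 10 genes. These intervals do not show that the genes are equal in both groups.

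**Figure D1:**
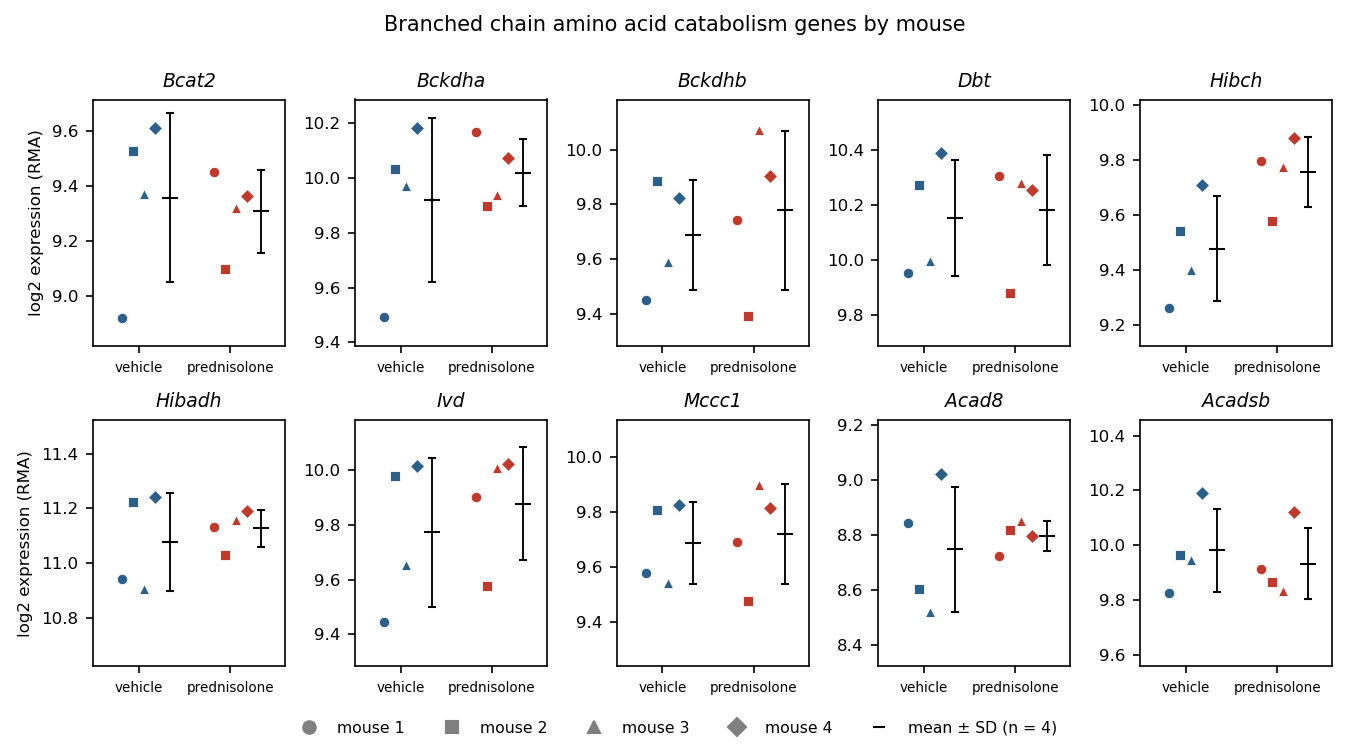
Log2 expression of the 10 catabolism genes in each mouse, blue for vehicle and red for prednisolone, with a symbol for each replicate number and the group mean ± SD (n = 4) in black. Each panel spans the same log2 height around its own centre, the groups overlap in all 10 genes, and vehicle mouse 1 (blue circle) is the lowest of the 8 mice in 5 of them.

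Bcat2, the mitochondrial transaminase that starts the breakdown, read 9.45, 9.10, 9.32 and 9.36 in prednisolone mice 1 to 4. It read 8.92, 9.53, 9.37 and 9.61 in vehicle mice 1 to 4. The lowest and the highest value both belonged to the vehicle group, so the prednisolone values lay inside the vehicle range. The means were 9.31 ± 0.15 and 9.36 ± 0.31 (SD, n = 4 each), a difference of -0.050 ± 0.16 (standard error of the linear model), with a limma adjusted p of 0.944. Without vehicle mouse 1, which was the lowest of all, the difference was -0.20.

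The branched chain ketoacid dehydrogenase complex is built from E1, a thiamine-dependent decarboxylase of alpha and beta subunits, the E2 core, which transfers the acyl group, and E3, which it shares with other complexes. Bckdha, the E1 alpha subunit that carries the regulatory phosphorylation, read 10.17, 9.90, 9.94 and 10.07 in prednisolone mice 1 to 4 and 9.49, 10.03, 9.97 and 10.18 in vehicle mice 1 to 4. Vehicle mouse 1 stood well below the other 7 mice, which spanned 9.90 to 10.18. The difference was 0.10 ± 0.15 (adjusted p = 0.876, limma), and it was -0.043 without that mouse. Bckdhb, the E1 beta subunit, read 9.74, 9.39, 10.07 and 9.90 with prednisolone and 9.45, 9.89, 9.59 and 9.83 with vehicle, in mice 1 to 4. Prednisolone mouse 2 was the lowest of the 8 and prednisolone mouse 3 the highest, so here the treated group was the wider one (SD 0.29 against 0.20). The difference was 0.090 ± 0.16 (adjusted p = 0.899, limma), and it was -0.0084 without prednisolone mouse 3. Dbt, the E2 core, read 10.31, 9.88, 10.28 and 10.26 with prednisolone and 9.95, 10.27, 10.00 and 10.39 with vehicle. The low prednisolone value was again that of mouse 2, and the low vehicle values those of mice 1 and 3. The difference was 0.029 ± 0.14 (adjusted p = 0.963, limma), with a sign that turned without any of 4 mice in turn (prednisolone 1 or 3, vehicle 1 or 3). Dld, the shared E3 and not among the 10, differed by 0.038 ± 0.10. For all 4 parts of the complex, the 95% interval held 0.

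The promoter of Bckdhb is shown because, among the 10 genes, it is where the core letters of a glucocorticoid receptor site were found. The letters TGTTCT were searched on both strands (AGAACA on the other) in the 250 bases before the gene start, in the RefSeq promoter table of build GRCm38.p6. Of 32851 such windows, 16.1% held the letters. The promoter table held 11 windows for 9 of the 10 genes (all but Dbt), and 1 window held the letters. It lies at chr9:83924887-83925136 on the plus strand, and the capitals mark the match, which starts 238 bases before the gene start:
Bckdhb: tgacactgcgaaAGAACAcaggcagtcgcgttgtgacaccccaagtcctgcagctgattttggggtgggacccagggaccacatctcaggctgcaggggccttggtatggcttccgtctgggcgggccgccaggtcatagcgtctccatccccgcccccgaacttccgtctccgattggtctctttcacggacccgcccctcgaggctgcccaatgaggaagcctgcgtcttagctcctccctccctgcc

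Leucine's own branch was represented by Ivd and Mccc1. Ivd, isovaleryl-CoA dehydrogenase, which makes the first oxidation after the shared steps, read 9.90, 9.58, 10.01 and 10.02 in prednisolone mice 1 to 4 and 9.45, 9.98, 9.65 and 10.01 in vehicle mice 1 to 4. The lowest value of each group came from a mouse rich in epididymal transcripts, prednisolone mouse 2 and vehicle mouse 1, while vehicle mouse 4, also rich in them, was the highest of its group. The part of this tissue in the spread was not tested. The difference was 0.10 ± 0.16 (adjusted p = 0.877, limma), and it was -0.0055 without vehicle mouse 1. Mccc1, the biotin-carrying alpha subunit of methylcrotonoyl-CoA carboxylase, read 9.69, 9.48, 9.90 and 9.82 with prednisolone and 9.58, 9.81, 9.54 and 9.83 with vehicle. Prednisolone mice held both the lowest and the highest value. The difference was 0.032 ± 0.12 (adjusted p = 0.951, limma).

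Valine's branch runs through Acad8, Hibch and Hibadh, and it held the largest difference of the 10 genes. Hibch, 3-hydroxyisobutyryl-CoA hydrolase, which frees hydroxyisobutyrate from coenzyme A, read 9.80, 9.58, 9.77 and 9.88 in prednisolone mice 1 to 4. It read 9.26, 9.54, 9.40 and 9.71 in vehicle mice 1 to 4. Prednisolone mice 1, 3 and 4 lay above every vehicle mouse, and prednisolone mouse 2 lay below vehicle mouse 4 and above the other 3. The means were 9.76 ± 0.13 and 9.48 ± 0.19 (SD, n = 4 each), a difference of 0.28 ± 0.11 with an interval from 0.017 to 0.54, or 1.21-fold. The adjusted p was 0.768 (limma) and the unadjusted p 0.0395, and the two-sided exact permutation p was 0.0571, where 4 mice against 4 cannot go below 0.0286. Under 18 alternatives the difference stayed positive. Changes of dim filter, probe sets, variance model and replicate block could not move it, only its p. The unadjusted p (limma) lay between 0.0132 and 0.1 and was under 0.05 in 9 of the alternatives. The difference was 0.35 without the 3 mice rich in epididymal transcripts, which left 3 prednisolone and 2 vehicle mice. It was 0.26 with the epididymis deviation as a covariate (unadjusted p = 0.0557, limma). Both settings were chosen after seeing the data.

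The promoter of Hibch is shown because this gene had the largest difference. In the same windows, the GC box, searched as GGGCGG on both strands, was found in 32.7% of all windows and in 6 of the 11 windows of these genes. The Hibch window, chr1:52844788-52845037 on the plus strand of GRCm38.p6, held them 5 times, with 3 of these matches overlapping by their end letters, and 68.0% of its bases were G or C. The CCAAT box, searched as CCAAT and ATTGG, was in 33.8% of all windows and in 5 of the 11. The Hibch window held no TGTTCT on either strand, which says only that these letters are not in this window. Capitals mark the GC boxes:
Hibch: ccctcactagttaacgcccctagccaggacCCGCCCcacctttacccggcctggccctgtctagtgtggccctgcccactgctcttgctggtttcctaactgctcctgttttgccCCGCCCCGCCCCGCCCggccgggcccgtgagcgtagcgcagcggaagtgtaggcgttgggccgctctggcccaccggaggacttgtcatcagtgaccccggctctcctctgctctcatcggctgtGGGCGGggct

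Acad8, isobutyryl-CoA dehydrogenase, the step before Hibch's substrate is formed by hydration, read 8.72, 8.82, 8.85 and 8.80 in prednisolone mice 1 to 4 and 8.85, 8.60, 8.52 and 9.02 in vehicle mice 1 to 4. All prednisolone values lay inside the vehicle range, with an SD of 0.054 against 0.23. The difference was 0.050 ± 0.12 (adjusted p = 0.921, limma). Hibadh, which oxidises the free hydroxyisobutyrate, read 11.13, 11.03, 11.16 and 11.19 with prednisolone and 10.94, 11.22, 10.91 and 11.24 with vehicle. The vehicle mice fell into a high pair, 2 and 4, and a low pair, 1 and 3, with the prednisolone mice between them. The difference was 0.049 ± 0.10 (adjusted p = 0.91, limma). Whether Hibch differs from Acad8 and Hibadh in its response was not tested.

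Acadsb, the short branched chain acyl-CoA dehydrogenase that acts on the isoleucine product, read 9.91, 9.86, 9.83 and 10.12 in prednisolone mice 1 to 4 and 9.83, 9.97, 9.95 and 10.19 in vehicle mice 1 to 4. Mouse 4 was the highest of both groups. The difference was -0.050 ± 0.10 (adjusted p = 0.911, limma), and without vehicle mouse 4 it was 0.020.

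Averaged over the 10 genes, mice of the same group spread widely. The mean deviation was 0.064, -0.16, 0.095 and 0.12 in prednisolone mice 1 to 4. It was -0.25, 0.066, -0.13 and 0.18 in vehicle mice 1 to 4, so the vehicle group held both the lowest and the highest mouse. Vehicle mouse 4 was the highest of the 8 mice in 6 genes, and the lowest mice were vehicle mouse 1 in 5 genes, prednisolone mouse 2 in 3 and vehicle mouse 3 in 2. The distance of a gene from this mean profile, which contains the gene itself, was measured as the root mean square difference over the 8 arrays. It was smallest for Hibadh (0.059) and Dbt (0.061), and largest for Acad8 (0.17). The SD between mice of the same group had a median of 0.19 over the 10 genes and of 0.17 over all tested genes.

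**Figure D2:**
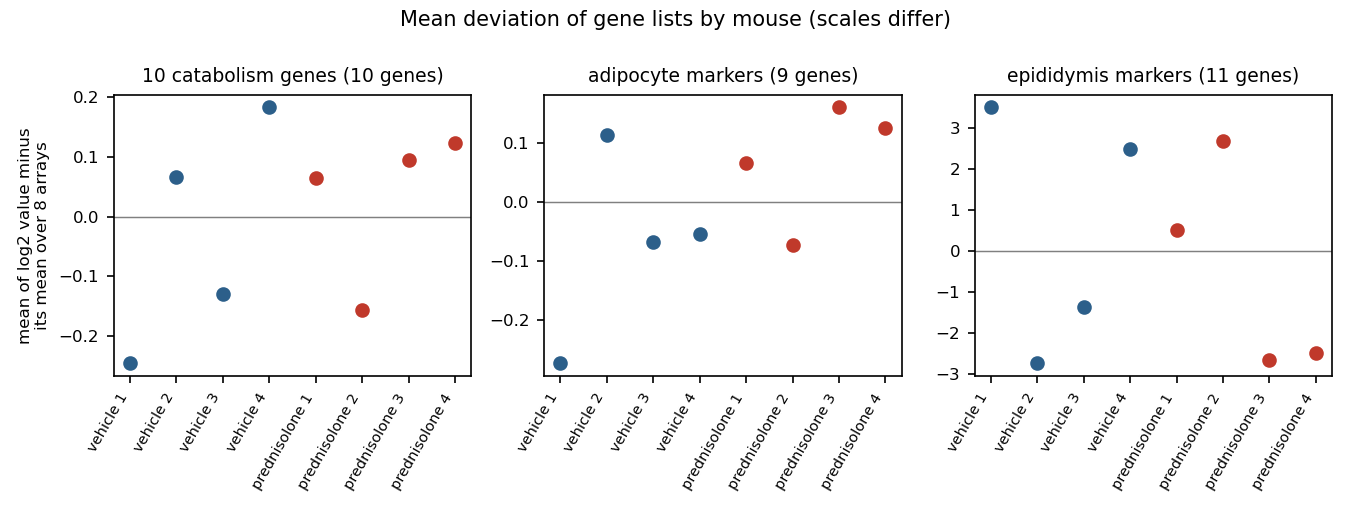
Mean deviation by mouse of the 10 catabolism genes, 9 adipocyte markers and 11 epididymis markers, each the mean of log2 value minus its mean over the 8 arrays, with vehicle in blue and prednisolone in red and a vertical scale for each panel. Vehicle mouse 1 is the lowest for the catabolism genes (-0.25) and the adipocyte markers (-0.27) and the highest for the epididymis markers (3.51), while vehicle mouse 4, at 2.50 for the epididymis markers, is the highest for the catabolism genes (0.18).

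Markers of the cells in the pad followed this profile in some mice and not in others. The mean deviation of 9 adipocyte markers was lowest in vehicle mouse 1 (-0.27), as for the catabolism genes, but was -0.054 in vehicle mouse 4, where those genes were highest. Vehicle mice 2 and 3 stood at 0.12 and -0.068, and the deviation ran from -0.072 to 0.16 over the prednisolone mice. Of these markers 8 were higher with prednisolone and 1 was lower, with a median difference of 0.13, and their mean level spanned 12.4 to 12.7 with prednisolone and 12.2 to 12.6 with vehicle. The 10 mitochondrial genes, which include citrate synthase, had a median difference of 0.023. Their deviation was 0.028, -0.072, 0.099 and -0.042 in prednisolone mice 1 to 4 and -0.0070, 0.084, -0.12 and 0.031 in vehicle mice 1 to 4, so vehicle mouse 1, lowest for the catabolism genes, was near the middle. Macrophage markers had a median difference of 0.25, 9 of 10 being higher with prednisolone, and vehicle mouse 3 stood at 0.68, the highest of all, where the catabolism genes stood at -0.13. Of 11 epididymis markers 3 were higher with prednisolone, and their mean level spanned 5.47 to 10.8 with prednisolone and 5.38 to 11.6 with vehicle. Of 7 endothelial markers 1 was higher, and of 7 progenitor markers 4 were. Of 8 skeletal muscle markers, a tissue with abundant Bcat2, 3 (Myh1, Myh4 and Mylpf) lay below the filter on dim genes on average. Of the 5 tested, 4 were higher with prednisolone and 1 was lower. Acta1 differed by 0.99 ± 0.39 (adjusted p = 0.768, limma) and was highest in prednisolone mouse 4 at 9.98. Ckm was highest in prednisolone mouse 3, Tnnt3 and Pvalb in prednisolone mouse 1, and Actn3 in vehicle mouse 3. The part of these cell types in the catabolism genes' values was not tested.

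The nearest genes outside the list by that root mean square measure over the 8 arrays were Zfp369 (0.029), Prkaa1 (0.042) and Flcn (0.051). Zfp369 encodes a zinc finger protein, Prkaa1 a catalytic subunit of AMP-activated protein kinase and Flcn folliculin. Prkaa1 read 10.36, 10.13, 10.39 and 10.36 in prednisolone mice 1 to 4 and 9.96, 10.32, 10.23 and 10.49 in vehicle mice 1 to 4, lowest in vehicle mouse 1 and highest in vehicle mouse 4, as the 10 genes were on average. The arrays share their normalization, and with 8 points among 14787 genes such likeness is a description only.

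None of the other enzymes of the pathway passed either. Of 12 measured, 0 passed the adjusted threshold in either direction, with 7 means higher and 5 lower with prednisolone and a median difference of 0.030. At an unadjusted p under 0.05 there were 0 of 12. Mccc2, the beta subunit that works with Mccc1, had the lowest p of those with a lower mean. It read 9.80, 9.69, 9.62 and 9.80 in prednisolone mice 1 to 4 and 9.70, 10.03, 9.75 and 10.11 in vehicle mice 1 to 4, a difference of -0.17 ± 0.11 (adjusted p = 0.768, limma). Vehicle mice 2 and 4 were the high ones, and vehicle mice 1 and 3 lay among the treated mice, and the difference was -0.097 without vehicle mouse 4. Echs1, the enoyl-CoA hydratase of the valine and isoleucine branches, and Acat1, the thiolase that ends isoleucine breakdown, differed by -0.11 ± 0.085 and -0.075 ± 0.093. Echs1 differed by -0.061 without vehicle mouse 4. Acat1 differed by -0.036, -0.039 and -0.041 without prednisolone mouse 3, vehicle mouse 2 and vehicle mouse 4, and by -0.12 without prednisolone mouse 4. Among the higher means, Hsd17b10, the isoleucine branch dehydrogenase, differed by 0.12 ± 0.088, and by 0.071 without prednisolone mouse 4. Pcca, the biotin-carrying subunit of propionyl-CoA carboxylase, differed by 0.15 ± 0.13, from 0.065 without vehicle mouse 1 to 0.23 without vehicle mouse 2. Bcat1, the cytosolic transaminase, differed by 0.17 ± 0.17, and this rested on prednisolone mouse 3 at 7.91 where the other 7 mice spanned 7.08 to 7.28, since the difference was -0.0074 without that mouse. Of the enzymes downstream of propionyl-CoA, Pccb, Mcee and Mmut, the differences lay between -0.025 and 0.037.

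**Figure D3:**
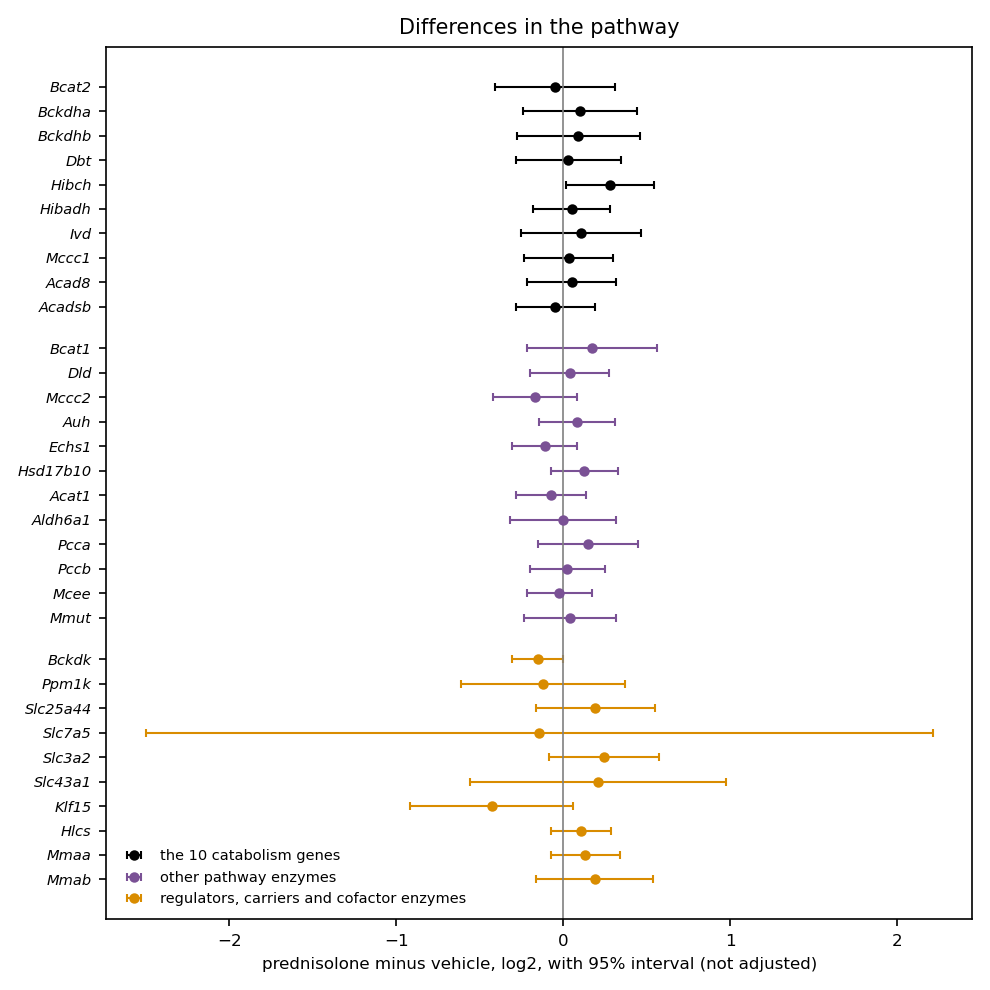
Difference in mean log2 expression, prednisolone minus vehicle, for the 10 catabolism genes (black), 12 other pathway enzymes (purple) and 10 regulators, carriers and cofactor enzymes (orange), with 95% intervals of the linear model that are not adjusted for the number of genes. The intervals of Hibch and Bckdk leave out 0, and that of Slc7a5 is the widest, from -2.50 to 2.21.

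Among regulators, carriers and cofactor enzymes, 10 of 11 listed genes were measured (Btd had no probe set with a single symbol) and 0 passed the adjusted threshold, with 6 means higher and 4 lower. Bckdk, the kinase that switches the dehydrogenase off, was where the groups lay apart. It read 9.91, 9.92, 9.82 and 9.85 in prednisolone mice 1 to 4 and 10.04, 10.06, 9.95 and 10.07 in vehicle mice 1 to 4. Every prednisolone mouse was below every vehicle mouse, with a gap between 9.92 and 9.95, and 1.39% of all tested genes were apart in this direction. The means were 9.87 ± 0.048 and 10.03 ± 0.055 (SD, n = 4 each), a difference of -0.15 ± 0.066, or 0.898-fold. The adjusted p was 0.768 and the unadjusted p 0.0469 (limma), and the two-sided exact permutation p was 0.0286, the smallest that 4 against 4 can give, among 32 pathway genes examined. The difference was -0.15 without the 3 mice rich in epididymal transcripts, and it ran from -0.18 to -0.14 when each mouse was left out in turn. The unadjusted p lay between 0.0268 and 0.197 under 18 alternatives and was under 0.05 in 6 of them.

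The Bckdk promoter window is shown beside that of Bckdhb because it also held the receptor site letters, marked in capitals, 90 bases before the gene start. It lies at chr7:127903823-127904072 on the plus strand of GRCm38.p6. The letters were in 16.1% of all windows, and they were not counted over the windows of the other further pathway genes. A match is a description of the letters, and binding was not measured:
Bckdk: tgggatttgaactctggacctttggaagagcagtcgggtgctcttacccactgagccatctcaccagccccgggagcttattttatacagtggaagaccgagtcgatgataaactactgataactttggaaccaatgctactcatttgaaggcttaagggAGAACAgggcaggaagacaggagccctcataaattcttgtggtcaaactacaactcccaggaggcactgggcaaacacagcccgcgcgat

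Ppm1k, the phosphatase that switches the dehydrogenase on, read 7.80, 7.55, 7.46 and 7.97 in prednisolone mice 1 to 4 and 7.35, 7.81, 7.74 and 8.37 in vehicle mice 1 to 4. The vehicle mice held both ends of the range, and the difference was -0.12 ± 0.21 (adjusted p = 0.895, limma). It was 0.063 without vehicle mouse 4. Klf15, a transcription factor that glucocorticoids induce in other tissues and that activates genes of this pathway in muscle and liver, read 7.83, 7.99, 8.37 and 7.65 with prednisolone and 8.18, 8.73, 7.98 and 8.68 with vehicle. Vehicle mice 2 and 4 were above all treated mice, and the other vehicle mice lay among them. The difference was -0.43 ± 0.21 (adjusted p = 0.768, limma), and it was -0.32 without vehicle mouse 2 and -0.57 without vehicle mouse 3 or prednisolone mouse 3.

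**Figure D4:**
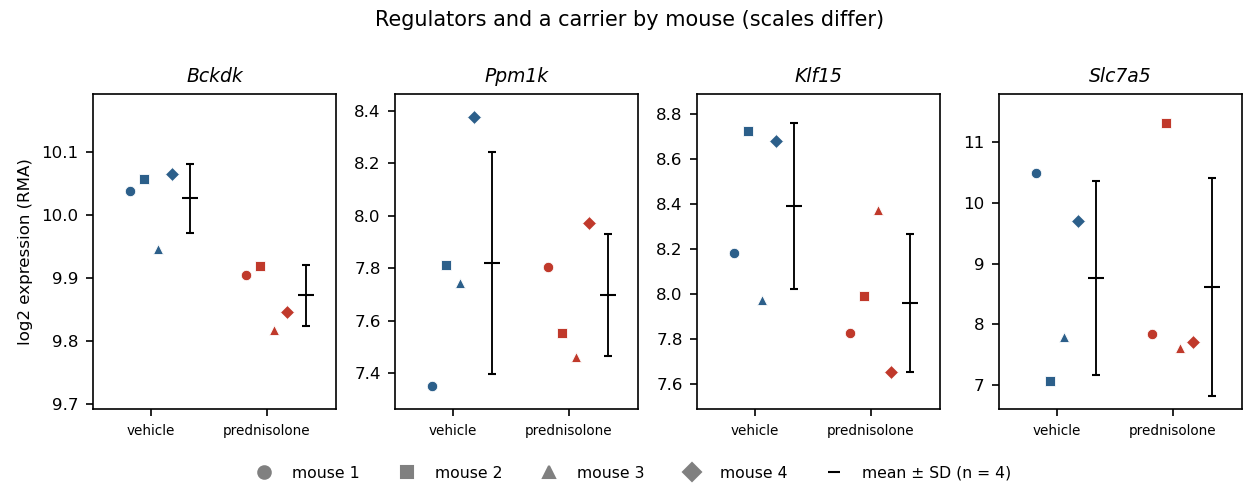
Log2 expression by mouse of Bckdk, Ppm1k, Klf15 and Slc7a5, blue for vehicle and red for prednisolone, with a symbol for each replicate number and the group mean ± SD (n = 4) in black; the panels have scales of their own. The 4 prednisolone mice lie below the 4 vehicle mice for Bckdk, and prednisolone mouse 2 stands at 11.32 for Slc7a5.

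Of the carriers, Slc25a44, which brings branched chain amino acids into mitochondria, differed by 0.19 ± 0.16 (adjusted p = 0.793, limma), and by 0.033 without prednisolone mouse 3, which read 9.36. Slc3a2, the heavy chain of the plasma membrane carrier of large neutral amino acids, differed by 0.24 ± 0.14 (adjusted p = 0.768, limma). It differed by 0.15 without prednisolone mouse 2 and by 0.12 with array quality weights. It differed by 0.29 with the epididymis covariate and by 0.33 without the 3 mice rich in epididymal transcripts (unadjusted p = 0.0414 and 0.0458, limma). Its unadjusted p was under 0.05 in only these 2 of 18 alternatives. Its light chain partner Slc7a5, named here after its values were seen, read 7.84, 11.32, 7.61 and 7.71 in prednisolone mice 1 to 4 and 10.50, 7.07, 7.78 and 9.70 in vehicle mice 1 to 4. The 3 high mice were the 3 rich in epididymal transcripts, in both groups, and the other 5 spanned 7.07 to 7.84. The part of that tissue in the Slc7a5 values was not tested. Mmaa, which serves the cobalamin cofactor of methylmalonyl-CoA mutase, differed by 0.13 ± 0.091, and by 0.21 without vehicle mouse 2. Hlcs, which attaches biotin to the carboxylases of the pathway, differed by 0.11 ± 0.078, and by 0.065 without prednisolone mouse 1.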

How the data were processed

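Values were log2 expression values made by the authors by RMA (robust multiarray averaging), for which the labels name Expression Console. The submitters' processing notes also list Partek 6.6, with no role. RMA corrects background, equalises array distributions and summarises probes, so differences at low signal are compressed. From 100 ng of RNA per mouse, 41345 probe sets were deposited. Their annotation version and build were not given in the sources used here.

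Probe sets with a single gene symbol (23521) were kept, per gene the one with the highest mean over 8 arrays. The dimmest 33.3% of 22180 genes, below 5.82, were left out, and 14787 were tested. Groups were compared with limma 3.58.1 (R 4.3.3; lmFit, eBayes, no covariate, Benjamini-Hochberg threshold 0.05), a fit tested on simulated data. Single genes were also compared by two-sided exact permutation over mice. Entrez identifiers of all 32 measured pathway genes, the 10 included, matched the RefSeq gene table. Promoters came from a separate RefSeq promoter table, and figures from matplotlib 3.10.9.

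The genes and lists were chosen with earlier results of these data known. All 10 genes were named. Of the further pathway lists, the rule named Bckdk, Ppm1k, Dld, Mccc2, Slc25a44, Klf15 and the 3 with the lowest p per list and direction. Slc7a5, Pccb, Mcee, Mmut and Mmab were also named, outside this rule, and their differences were not followed under the alternatives. Alternatives changed the dim filter, normalization, probe sets, variance model, weights and replicate block, and left out each mouse. The epididymis covariate and the omission of mice with a score over 1 were added after seeing the data. The labels call the replicates biological.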

Additional observations from a re-analysis of the deposited data

Results flagged for a closer look

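In 64 groups of 4 mice, for the 10 genes and 22 further pathway genes, 3 held a mouse farther from the others than Dixon's 95% critical value, where chance gives about 1 in 20. Dbt read 9.88 in prednisolone mouse 2, and the nearest mouse of the group 10.26. Slc7a5 read 11.32 in prednisolone mouse 2, and the nearest 7.84. Mmab, an enzyme of the cobalamin cofactor, read 9.21 in prednisolone mouse 3, and the nearest 8.75. Prednisolone mouse 2 was rich in epididymal transcripts (mean deviation 2.69), and prednisolone mouse 3 was not (-2.65). Over 7 spermatid markers, prednisolone mouse 3 had the highest mean deviation of its group (1.15), and prednisolone mouse 2 stood at -0.81. Vehicle mouse 1 was the highest of all mice for these markers (1.51). The part of these transcripts in the outlying values was not tested.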

How the results depend on the processing

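Under 18 alternatives, limma called 0 genes over all tested genes, with 436 to 1980 genes at an unadjusted p under 0.05 (842 in the fit as reported), and so 0 of the 10 catabolism genes, whose adjusted p lay between 0.399 and 1. Of the differences of the 24 genes named by rule, 407 values kept their direction and 25 turned, and the cause was not tested. Many of the 407 could not turn, since changes of dim filter, probe sets, variance model and replicate block leave these differences unchanged. With array quality weights, which favoured prednisolone mouse 1 (weight 2.06) and vehicle mouse 4 (2.01), Dbt was -0.025, Hibadh -0.0070, Mccc1 -0.021 and Acad8 -0.066, and 4 of the 10 genes were higher. With the epididymis covariate Dbt was -0.00057. Leaving out each mouse in turn, the count of higher genes ran from 4 to 10. The differences ran from -0.20 to 0.035 for Bcat2, -0.043 to 0.19 for Bckdha, -0.0084 to 0.22 for Bckdhb, -0.038 to 0.13 for Dbt, -0.0084 to 0.10 for Hibadh, -0.0055 to 0.20 for Ivd, -0.027 to 0.11 for Mccc1, -0.026 to 0.14 for Acad8 and -0.11 to 0.020 for Acadsb. They ran from -0.040 to 0.098 for Dld, -0.0074 to 0.27 for Bcat1 and -0.28 to 0.063 for Ppm1k, and from 0.21 to 0.36 for Hibch. Deviations from the group means of same-numbered mice correlated over genes at -0.19, -0.58, 0.13 and -0.28. Prednisolone mouse 2 and vehicle mouse 1, both rich in epididymal transcripts, correlated at 0.57. Since tissue content enters these correlations, they cannot show whether equal numbers share a litter or day. With the replicate block, which cannot change a difference here, Hibch stayed at 0.28 (unadjusted p = 0.0587, limma). With that block 504 genes had an unadjusted p under 0.05 (limma). The number of arrays limits the precision.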
